A study of Mus musculus with 13 samples.

Results

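Collectins are soluble or membrane-bound lectins that join a collagen-like stalk to a domain that binds sugars. Colec10 (collectin liver 1) and Colec11 (collectin kidney 1) are secreted recognition molecules, and Colec12 (collectin placenta 1) is a membrane scavenger receptor. Masp1 encodes MASP-1, a serine protease that travels with the soluble collectins and starts the lectin pathway of complement once they bind a surface, and the same gene also yields MASP-3 and a short non-protease form by alternative splicing. In human, variants of COLEC10, COLEC11 and MASP1 cause 3MC syndrome, a disorder of facial development that can include urogenital anomalies.

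These 4 genes were selected on measured values: Colec10 and Colec11 had been seen to be high on the bladder arrays. Of the genes named by a probe set with 1 symbol, 18193 in all, they are read by 9 of the 45101 probe sets on the array, 1 for Colec10, 2 for Colec11, 1 for Colec12 and 5 for Masp1. All 9 passed the filter on low intensity, which kept probe sets above an intensity of 167.76 on at least 3 arrays. Since bladder values led to the choice, bladder differences between regions are given as a description without a p-value for all 9, and so are those of Colec10 and Colec11 against the newborn reference. The labels do not say which of the Masp1 transcripts each probe set reads. Probe sets with the suffix s_at or x_at hold probes that can be shared between transcripts or with related genes, so Colec11 1458345_s_at and Masp1 1425985_s_at, 1438602_s_at and 1438603_x_at are less certain to read 1 gene alone.

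Tissue came from FVB/N mouse embryos at embryonic day 14, whose fathers carried the SMGA/EGFP transgene, in which the promoter of the smooth muscle gamma-actin gene Actg2 drives a green fluorescent protein. Regions were dissected by this fluorescence without pooling, giving 3 bladder arrays (replicates 2, 6 and 8), 3 urethra arrays (replicates 1, 2 and 6) and 4 urogenital sinus arrays (replicates 1, 2, 6 and 7). The newborn reference was RNA of whole wild-type FVB/N mice at postnatal day 1, pooled from 4 males and 4 females and hybridised to 3 arrays as a standard. By their labels, the region arrays numbered 1 and 2 are of Theiler stage 21, and those numbered 6, 7 and 8 of stage 22. The newborn reference arrays are labelled stage 27. Whether different embryos gave the arrays is not in the labels, and p-values therefore speak of the spread among these samples alone, which may be technical. In RNA from whole tissue, fewer cells of a type and less RNA per cell cannot be told apart.

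Values are signal intensities on Affymetrix MOE430 arrays, and differences are on the log2 scale, where values were first raised to a floor of 50.23. The number of arrays limits the precision. Median intensity per array was 142 to 238 in bladder, 221 to 378 in urethra, 259 to 389 in sinus and 278 to 455 in the newborn reference, so all differences are read against the median of all 33125 kept probe sets, which was -0.31 for bladder minus sinus. Actg2, the gene behind the dissection, had an intensity of 16037, 11642 and 11965 in bladder, 7597, 12883 and 10801 in urethra, and 507, 636, 253 and 1746 in sinus. Every bladder and urethra array lay above every sinus array. The arrays of sinus replicate 1 and urethra replicate 1 stood apart in embryonic globin: Hbb-bh1 was at 15.04 and 14.51 on the log2 scale there, against 7.41 to 10.51 on the other region arrays.

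Colec10 was high in bladder and near or under the filter level in the neighbouring regions. Its probe set 1457871_at read 1689, 1792 and 1770 on the 3 bladder arrays. It read 141, 14.6 and 205 in urethra, and 23.2, 178, 131 and 159 in sinus. The 3 bladder arrays lay close together and all above every urethra and sinus array, and 2 of 3 urethra arrays and 3 of 4 sinus arrays were under the filter level. The newborn reference read 1857, 748 and 1292, a range that holds the bladder values. On the log2 scale Colec10 averaged 10.77 ± 0.045 in bladder (SD, n = 3), 6.82 ± 1.05 in urethra (SD, n = 3), 6.87 ± 0.83 in sinus (SD, n = 4) and 10.25 ± 0.66 in the newborn reference (SD, n = 3). The difference was 3.90 (SE 0.58) for bladder minus sinus and 3.95 (SE 0.62) for bladder minus urethra, and 3.36 for the second without urethra replicate 2. These sizes rest on urethra and sinus values under the filter level. With each such array counted at that level, bladder was 10.3-fold higher than sinus and 9.76-fold higher than urethra. Bladder minus newborn reference was 0.53 (SE 0.87), within its error.

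Colec11 was also high in bladder, by both of its probe sets, and they differed in how far urethra and sinus lay apart. Probe set 1458345_s_at read 14345, 8351 and 12708 in bladder, 4.48, 481 and 179 in urethra, and 3332, 1996, 2010 and 321 in sinus. Every bladder array was above every urethra and sinus array, sinus replicates 1, 2 and 6 were above all urethra arrays, and sinus replicate 7 fell within the urethra range. The newborn reference read 6865, 3543 and 4564, below each bladder array. Bladder minus sinus was 3.0 (SE 0.87), or 7.99-fold. It was 2.28 without sinus replicate 7 and 3.40 without sinus replicate 1. Bladder minus urethra was 6.14 (SE 0.93), with urethra replicate 1 set to the floor, or 47.3-fold with that array counted at the filter level. This difference was 5.30 without urethra replicate 1 and 6.92 without urethra replicate 2.

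The other Colec11 probe set, 1429179_at, was dimmer. It read 661, 476 and 885 in bladder, 13.4, 20.8 and 102 in urethra, 82.3, 196, 210 and 109 in sinus, and 395, 459 and 566 in the newborn reference. Bladder again lay above both neighbouring regions without overlap, and it overlapped the newborn reference. Bladder minus sinus was 2.24 (SE 0.47), or 3.54-fold with the sinus arrays under the filter level counted at that level. Because no urethra array passed the filter level, bladder was at least 3.89-fold higher than urethra, with that level used in place of a detection limit. Across the 10 region arrays the probe sets of Colec11 correlated at a Pearson r of 0.85, and Colec10 correlated with them at 0.90 (1429179_at) and 0.63 (1458345_s_at). These arrays share regions, so the correlations describe the regional pattern.

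**Figure D1:**
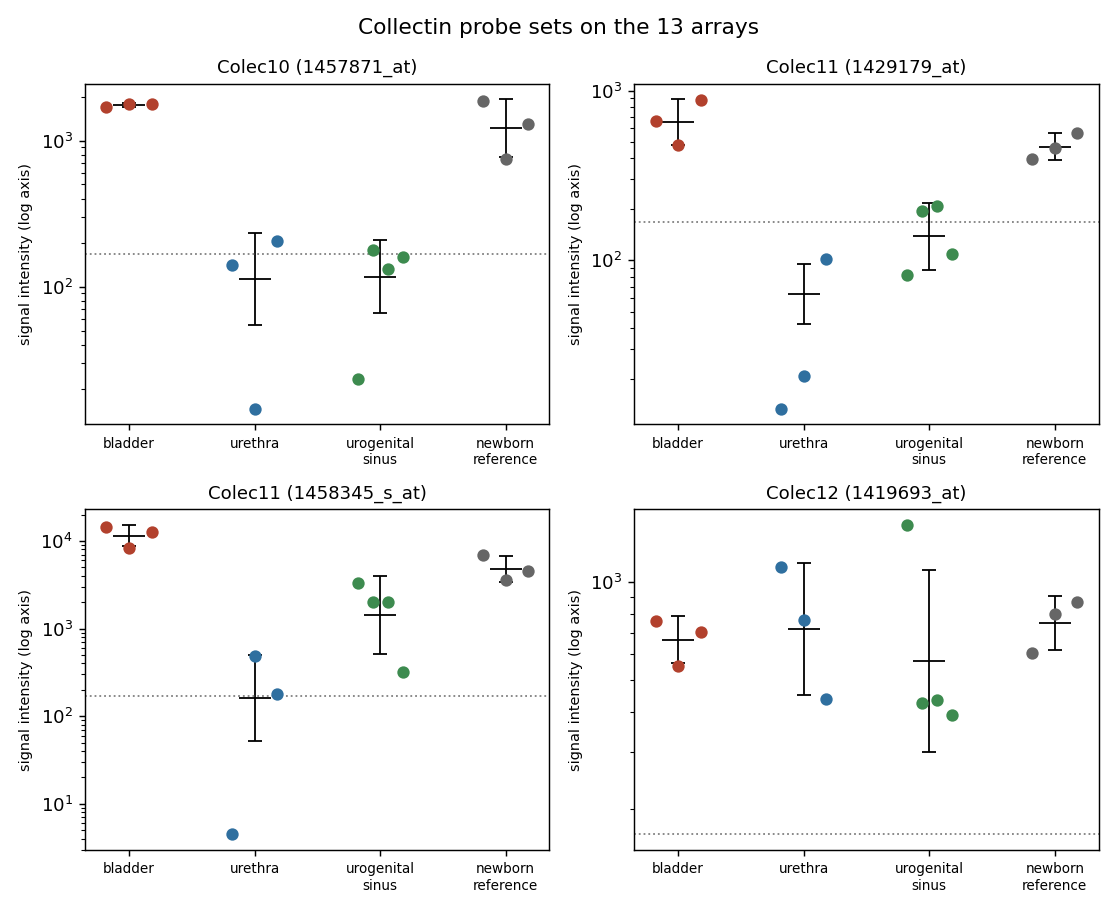
Signal intensity (log axis) of the Colec10, Colec11 and Colec12 probe sets on the 13 arrays, with bladder, urethra, urogenital sinus and newborn reference from left to right. Each point is an array, the bar and whiskers are the mean ± SD of the floored log2 values, and the dotted line is the filter level of 167.76. For Colec10 the 3 bladder arrays sit between 1689 and 1792, all above the urethra and sinus arrays, while the regions overlap for Colec12.

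The titles of the samples are written in 3 styles, and the labels do not say whether these mark batches. Bladder and sinus arrays occur together in 2 of them, so the difference could be read within a style. Colec10 differed between bladder and sinus by 4.04 in the style with 2 bladder and 3 sinus arrays and by 3.47 in the style with 1 array each. Colec11 1458345_s_at differed by 2.21 and 5.31, and 1429179_at by 1.90 and 3.03. The urethra arrays have a title style that no other region shares, and the reference arrays were assigned 1 to each style. The title of reference replicate 3 has neither of the other styles and was assumed to share that of urethra. Between urethra and the other regions, title style and region can be separated only through that array and that assumption. Without it they cannot be told apart.

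Colec12 did not follow the other collectins. It read 758, 552 and 705 in bladder, 1110, 762 and 438 in urethra, 1501, 424, 435 and 390 in sinus, and 605, 801 and 866 in the newborn reference. All 4 groups overlapped, all 13 arrays were above the filter level, and the highest arrays were sinus replicate 1 and urethra replicate 1. Bladder minus sinus was 0.22 (SE 0.53), with a 95% interval of -0.96 to 1.39, and bladder minus urethra was -0.11 (SE 0.57). Without sinus replicate 1, bladder minus sinus was 0.68. The 2 arrays with the highest Colec12 are the same that were rich in Hbb-bh1, and the part of this in the Colec12 values was not tested.

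Masp1, unlike the collectins it works with, was lower in bladder than in sinus by each of its 5 probe sets. Probe set 1425985_s_at read 972, 567 and 695 in bladder, 2377, 904 and 1360 in urethra, and 4440, 1935, 1372 and 1381 in sinus. Every bladder array was below every sinus array, and bladder overlapped urethra. The difference for bladder minus sinus was -1.47 (SE 0.48), or 2.77-fold lower in bladder. Probe set 1438603_x_at read 284, 202 and 183 in bladder, against 696, 425, 467 and 449 in sinus, again without overlap, with a difference of -1.19 (SE 0.39).

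Probe set 1455346_at read 92.2, 87.3 and 114 in bladder, 479, 129 and 107 in urethra and 223, 261, 270 and 178 in sinus. No bladder array reached the filter level while all 4 sinus arrays did, so Masp1 by this probe set was at least 1.37-fold lower in bladder than in sinus. For 1419677_at, which read 223, 501 and 359 in bladder and 928, 388, 735 and 686 in sinus, the regions overlapped and the difference was -0.93 (SE 0.42). The brightest probe set, 1438602_s_at, read 4723, 6724 and 744 in bladder, 2804, 4392 and 3335 in urethra, and 9352, 17191, 5144 and 3123 in sinus. Here bladder replicate 8 stood far below the other bladder arrays, the groups overlapped, and the difference was -1.31 (SE 0.76). It was -0.34 without bladder replicate 8 and -1.93 without bladder replicate 6. The ratio of 3′ to 5′ signal of the actin control probes, a sign of shortened RNA, was at its highest on bladder replicate 8, with a log2 value of 4.04. In urethra and sinus too, the array lowest for 1438602_s_at had the highest ratio of its group, urethra replicate 1 (3.42) and sinus replicate 7 (2.72). The part of this ratio in the values of 1438602_s_at was not tested.

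Bladder minus sinus differences of the 5 Masp1 probe sets were all below the median of all probe sets, -0.31. They stayed negative under every alternative run, quantile normalization and centring on array medians included. On centred arrays, where the median of all probe sets was 0.28, Masp1 1419677_at differed by -0.34 and 1438603_x_at by -0.60. Bladder minus urethra was smaller, from -0.98 to -0.27, with overlapping groups for all 5 probe sets. The median of all probe sets was -0.286 there, and 1419677_at (-0.278) and 1438602_s_at (-0.266) were not below it. The sign of 1419677_at and 1438602_s_at turned in 4 of 22 and 6 of 23 alternatives. With title style as a block, which rests on the style assumed for reference replicate 3, bladder minus urethra was -3.84 for 1438603_x_at, -2.13 for 1425985_s_at, -1.56 for 1455346_at, 1.38 for 1438602_s_at and 1.09 for 1419677_at. In the same setting 1438603_x_at differed by 2.64 in urethra minus sinus. Reference replicate 3 read 5.44 for this probe set, under the floor. The 5 probe sets correlated with each other at Pearson r of 0.21 to 0.84 over the 10 region arrays, and with Colec10 at -0.84 to -0.37. All of these values come from the same arrays, scaled together.

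**Figure D2:**
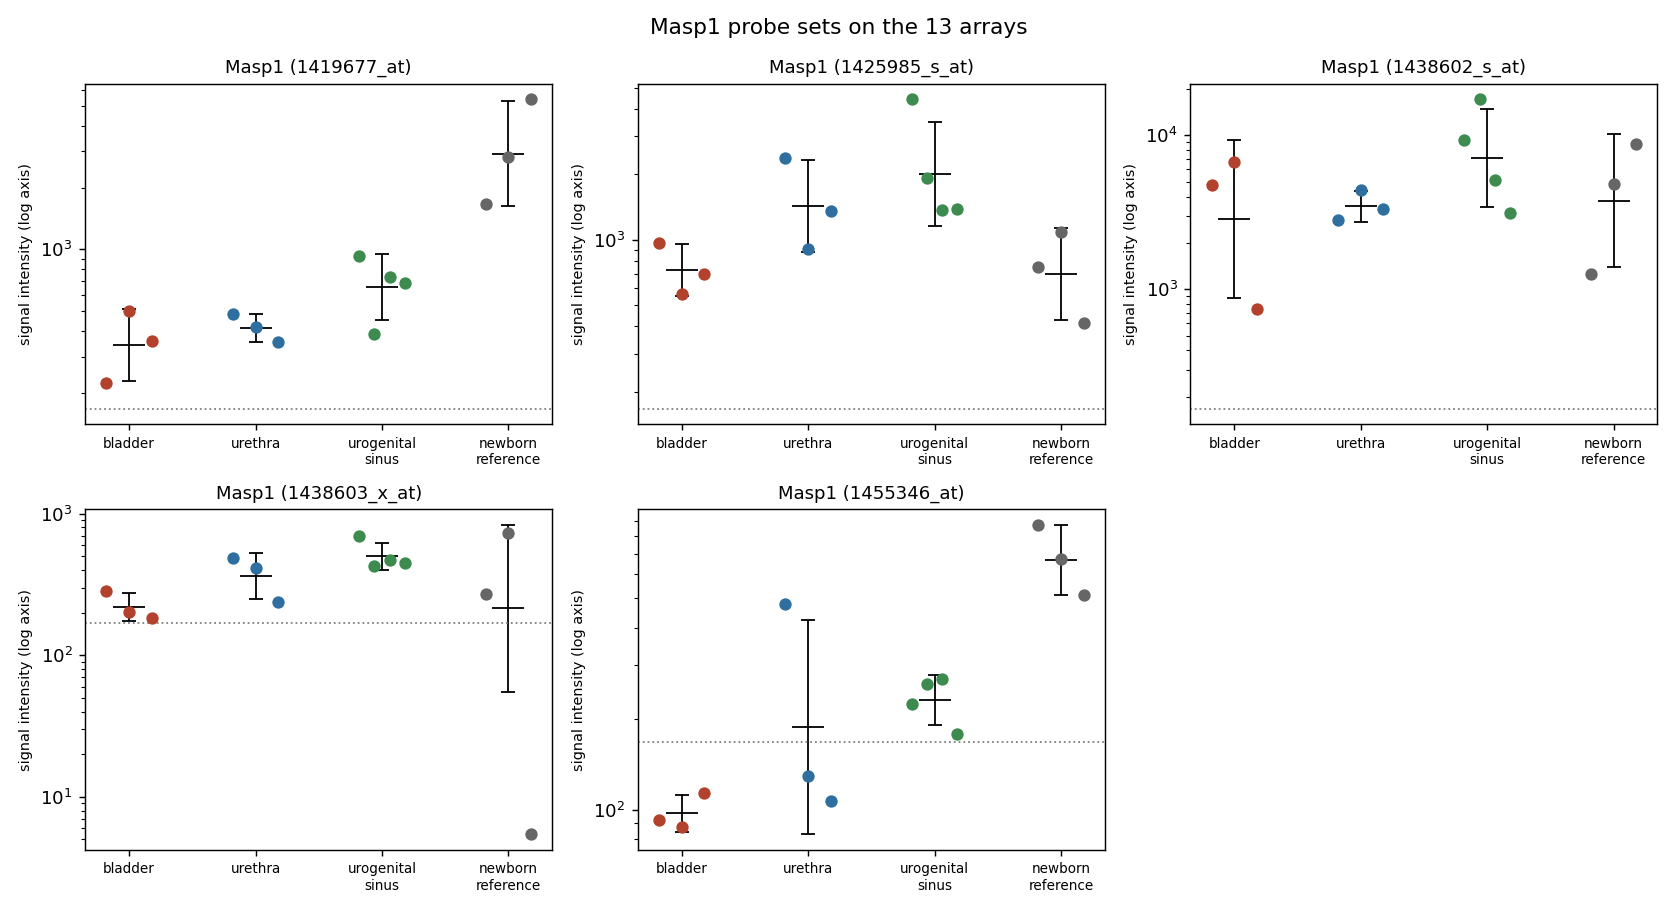
Signal intensity (log axis) of the 5 Masp1 probe sets on the 13 arrays, with bladder, urethra, urogenital sinus and newborn reference from left to right. Each point is an array, the bar and whiskers are the mean ± SD of the floored log2 values, and the dotted line is the filter level of 167.76. Bladder lies under sinus without overlap for 1425985_s_at, 1438603_x_at and 1455346_at.

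In bladder minus sinus, the groups did not overlap for 6 of the 9 probe sets: the 3 of Colec10 and Colec11 were higher in bladder and 3 of Masp1 were lower. Over all 33125 kept probe sets, 16.1% did not overlap in this comparison, 4.93% with bladder higher and 11.1% with bladder lower. In bladder minus urethra, 3 of the 9 did not overlap, those of Colec10 and Colec11, all higher, beside 29.0% of all probe sets and 9.09% that were higher. The collectin counts follow from how the genes were chosen, and nothing is read from them.

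Urethra and sinus were compared with a test, since the choice of genes named bladder values and not this contrast. Low urethra and sinus values may still have taken part in that choice. The p-values of Colec10 and Colec11 here may therefore not be independent of it. None of the 9 probe sets was called at an adjusted p under 0.05 (limma, Benjamini-Hochberg over 33125 probe sets), where 0.00604% of all probe sets were called, which is 2 probe sets. Every one of the 9 overlapped between urethra and sinus, beside 7.01% of all probe sets that did not. Colec10 differed by -0.05 (SE 0.58, adjusted p = 0.992), with a 95% interval of -1.34 to 1.25. Colec11 was at lower values in urethra by both probe sets, with -3.14 (SE 0.87, adjusted p = 0.372) for 1458345_s_at and -1.12 (SE 0.47, adjusted p = 0.614) for 1429179_at. These were the 2 of 9 with an unadjusted p under 0.05, at 0.00457 and 0.0361. With array quality weights Colec11 1458345_s_at reached an adjusted p of 0.0438, and over the 23 alternatives its adjusted p ran from 0.0438 to 0.819. Colec12 differed by 0.32 (SE 0.53, adjusted p = 0.906) with a 95% interval of -0.85 to 1.5, and Masp1 by -1.05 to -0.29 (adjusted p 0.765 to 0.912).

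**Figure D3:**
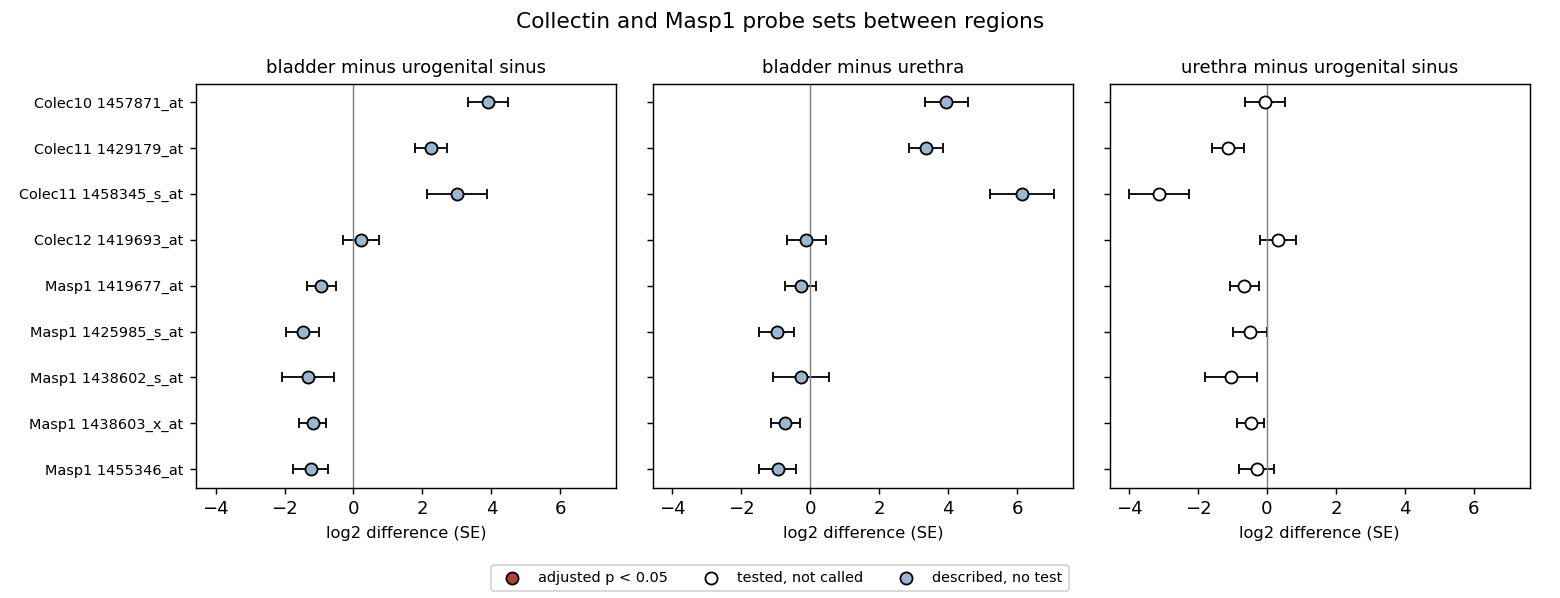
Log2 differences of the 9 probe sets between regions, as bladder minus urogenital sinus, bladder minus urethra and urethra minus urogenital sinus. Points are limma estimates and whiskers their SE, blue marks values given without a test and white marks tested values that were not called. Colec10 and Colec11 lie right of 0 in both bladder comparisons, and the 5 Masp1 probe sets lie left of 0 in bladder minus urogenital sinus.

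Against the newborn reference, Colec10 was lower in both urethra and sinus. Urethra minus reference was -3.42 (SE 0.87, adjusted p = 0.0425, limma), and sinus minus reference was -3.38 (SE 0.85, adjusted p = 0.0381). Colec10 and Colec11 were chosen as high in bladder, and low urethra and sinus values may have taken part in that choice. Their p-values against the reference in these regions may therefore not be independent of it, and nothing further is read from them. With arrays under the filter level counted at it, Colec10 was 6.78-fold lower in urethra and 7.14-fold lower in sinus. All 3 urethra arrays and all 4 sinus arrays were below all 3 reference arrays. Colec11 1429179_at was lower in urethra than in the reference, with a difference of -2.88 (SE 0.70, adjusted p = 0.0348), which is at least 2.79-fold lower against the filter level. For Colec11 1458345_s_at the difference was -4.88 (SE 1.31, adjusted p = 0.0533), and it did not pass. In sinus, Colec11 differed from the reference by -1.76 (adjusted p = 0.179) for 1429179_at and by -1.74 (adjusted p = 0.556) for 1458345_s_at.

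The Masp1 probe sets did not share a direction against the newborn reference. Probe set 1419677_at read 223 to 501 in bladder and 483, 419 and 354 in urethra, against 1662, 2806 and 5394 in the reference. It was lower in bladder, with a difference of -3.10 (SE 0.62, adjusted p = 0.0116, limma), and in urethra, with -2.82 (SE 0.62, adjusted p = 0.0217). In sinus it differed by -2.17 (SE 0.60, adjusted p = 0.0590) and did not pass. Probe set 1455346_at read 87.3 to 114 in bladder, against 872, 673 and 511 in the reference, with a difference of -2.79 (SE 0.76, adjusted p = 0.0484). Bladder was thus at least 3.99-fold lower against the filter level. Of the same gene, 1425985_s_at read 1372 to 4440 in sinus, against 751, 1091 and 414 in the reference, and every sinus array was above every reference array. Sinus minus reference was 1.53 (SE 0.71, adjusted p = 0.283). Probe set 1438602_s_at read 1255, 4838 and 8784 and 1438603_x_at read 269, 735 and 5.44 in the reference, so these standard arrays spread widely among themselves. Reference replicate 1, the lowest for 1438602_s_at, had the highest actin 3′ to 5′ ratio of the reference arrays (log2 3.01), and its part was not tested.

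Of the tested probe sets, 2 of 6 were called in bladder minus reference, both lower and both of Masp1, where 9.41% of all probe sets were called and 6.37% were lower. In urethra minus reference 3 of 9 were called, all lower, beside 7.16% of all (4.99% lower), and in sinus minus reference 1 of 9, lower, beside 7.39% (5.07% lower). Colec12 was not called in any of them, at -0.17, -0.06 and -0.39 in bladder, urethra and sinus (adjusted p 0.922, 0.986 and 0.871). These comparisons share the reference, entered as the mean of its 3 arrays and taken to vary like the region samples. The calls of Colec10 and Colec11 may not be independent of how the genes were chosen. Groups did not overlap for 3 of 9 probe sets in bladder (42.6% of all probe sets), 5 of 9 in urethra (31.1%) and 6 of 9 in sinus (25.5%).

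Several of these calls lay close to the threshold and were lost when 1 array was left out. Colec10 in urethra minus reference was lost in 13 of 25 alternatives, among them without bladder replicate 2, 6 or 8, sinus replicate 2, 6 or 7, urethra replicate 1 or 2, or reference replicate 1 (adjusted p 0.0551 to 0.0717). Colec10 in sinus minus reference was lost in 9 of 25, among them without bladder replicate 2, 6 or 8, sinus replicate 6 or 7, or urethra replicate 1 (0.0502 to 0.0711). Colec11 1429179_at in urethra was lost in 8 of 24, among them without bladder replicate 2 or 6, sinus replicate 7, or urethra replicate 1 or 2 (0.0501 to 0.0782), while 1458345_s_at passed in 11 of 25, among them without sinus replicate 1 or 7, urethra replicate 2 or reference replicate 2 (0.0193 to 0.0498). Masp1 1455346_at in bladder was lost in 13 of 24, among them without any 1 bladder array, sinus replicate 2, 6 or 7, urethra replicate 2 or reference replicate 1 (0.0532 to 0.118). Masp1 1419677_at was lost in bladder only on centred arrays (0.0627), and in urethra on centred arrays (0.0637) and without urethra replicate 6 (0.0597). In sinus it passed in 9 of 24, among them without sinus replicate 1 (0.0380) and without reference replicate 1 (0.0245). Masp1 1455346_at in urethra passed without urethra replicate 1 (0.0178), and 1438603_x_at in sinus, where it was higher, without reference replicate 2 (0.0478). In urethra minus reference 1438603_x_at was 0.75, and with title style as a block it was 2.85 (adjusted p = 0.0245, limma), again by the style assumed for reference replicate 3. The fit with this block took the 3 reference arrays as 3 samples, although they repeat 1 kind of pooled RNA. Its p-value may therefore be too small, and the gained call cannot be credited to title style alone. In the main fit without reference replicate 3 the difference was -0.30.

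**Figure D4:**
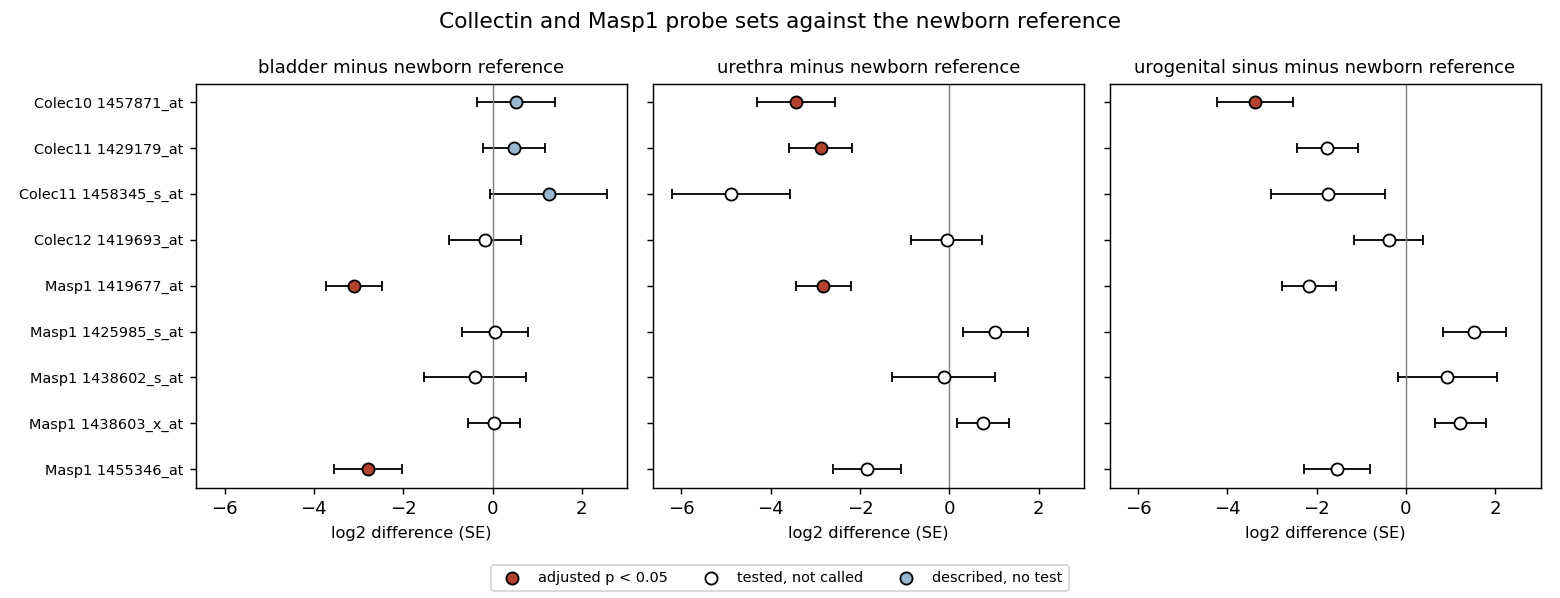
Log2 differences of the 9 probe sets between each region and the newborn reference, with bladder, urethra and urogenital sinus from left to right. Points are limma estimates and whiskers their SE, red marks an adjusted p under 0.05, white marks tested values that were not called and blue marks values given without a test. Colec10 lies far left of 0 in urethra and sinus and near 0 in bladder.

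The stages gave no call for any of the 9 probe sets. Theiler stage 22 minus stage 21, with region as a covariate, lay between -1.04 (Masp1 1438602_s_at) and 0.65 (Colec10), with adjusted p from 0.301 to 0.731 in limma. None had an unadjusted p under 0.05, and 0.00% of all 33125 probe sets were called, although 6356 had an unadjusted p under 0.05.

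The rest of the complement system was read through a list of 38 genes, and 33 of them had a probe set of a single symbol and 31 passed the filter. Each gene is represented by its brightest kept probe set. Masp2, C1ra, Cfb, C8a and C8b were under the filter level on every region array and passed through the reference arrays alone. Their differences between regions are of values under that level, and nothing is read from them. Between regions 0 of 31 were called in bladder minus sinus and in urethra minus sinus (4 and 2 with an unadjusted p under 0.05), and 1 of 31 in bladder minus urethra. Of all probe sets, 0.963% were called in bladder minus sinus and 1.71% in bladder minus urethra. The 1 gene called was Cd55, the decay-accelerating factor that breaks up the convertases of complement on a cell's own surface. Cd55 read 4062, 4996 and 2862 in bladder, 634, 781 and 874 in urethra, and 1028, 1467, 1871 and 1846 in sinus. Bladder was above both other regions on each array, urethra was below sinus on each array, and bladder minus urethra was 2.36 (SE 0.33, adjusted p = 0.0132, limma). With title style as a block, 2 probe sets were called in bladder minus urethra and 0 of them were higher, so Cd55 was not called there. That block rests on the style assumed for reference replicate 3.

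In bladder minus sinus Cd55 differed by 1.36 (SE 0.31, adjusted p = 0.0788), and Cd59a, which blocks the membrane attack complex, by -0.94 (SE 0.32, adjusted p = 0.227). In urethra minus sinus the smallest p-values belonged to Cd55 with -1.0 (SE 0.31, adjusted p = 0.451) and to Cd46, a cofactor for the breakdown of C3b, with -1.75 (SE 0.60, adjusted p = 0.509). The list's median difference was -0.53 in bladder minus sinus, -0.31 in bladder minus urethra and 0 in urethra minus sinus, beside -0.31, -0.29 and -0.02 over all probe sets.

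Against the newborn reference much of the list was lower: 15 genes lower and 1 higher of 31 in bladder, 11 lower and 0 higher in urethra, and 12 lower and 1 higher in sinus. Of all probe sets, 6.37%, 4.99% and 5.07% were called lower in bladder, urethra and sinus. The lower genes include Masp2, C1ra, Cfb, C8a and C8b in each region. These passed the filter through the reference arrays alone, so they could only be lower in the regions. The list's median difference was -2.77 in bladder, -2.35 in urethra and -2.28 in sinus, beside -0.33, 0.015 and 0.03 over all probe sets. Among the other lectin pathway genes, Mbl2 (a mannose-binding lectin), Masp2 (the protease that cleaves C4 and C2), and Sftpa1 and Sftpd (the surfactant collectins of the lung) were called lower in all 3 regions, and the ficolin gene Fcna in bladder and sinus. Mbl2 read 28.6, 49.0 and 87.4 in bladder, 26.7, 104 and 41.0 in urethra, and 253, 33.8, 77.6 and 98.2 in sinus, against 5906, 2030 and 4741 in the reference. Masp2 read at most 143 on any region array, against 398, 1041 and 1692 in the reference.

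Of the classical pathway, C1ra and C1s1, the proteases of the C1 complex, were lower than the reference in all 3 regions, as were Cfb (factor B), C8a and C8b of the membrane attack complex, the C3b-cleaving factor Cfi and the integrin chain Itgb2. Hc (complement C5), C8g and Cd59a were called lower in bladder, while their bladder minus sinus and bladder minus urethra differences were not called. Cd55 went the other way, with 2862 to 4996 in bladder and 1028 to 1871 in sinus, against 703, 368 and 127 in the reference, and was higher by 3.60 (SE 0.48, adjusted p = 0.00100) in bladder and by 2.24 (SE 0.46, adjusted p = 0.0146) in sinus. Urethra minus reference was 1.24 (adjusted p = 0.184).

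The whole newborn mouse contains liver, where much of complement is made. Summed intensity of 8 hepatocyte markers was 631 to 3590 in bladder, 1640 to 6570 in urethra and 454 to 28900 in sinus, against 431000 to 552000 in the newborn reference. In bladder 5 of the 8 markers (Apoa1, Apob, Fgb, Serpina1b and Ahsg) were under the filter level on all arrays, on which Colec10 read 1689 to 1792. The 8 hepatocyte markers had 0 calls between regions, where Fgb, Serpina1b and Ahsg were under the filter level on all region arrays. Against the reference 6, 7 and 7 were lower in bladder, urethra and sinus, beside 6.37%, 4.99% and 5.07% of all probe sets. The part of liver RNA in the comparisons with the reference was not tested.

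Markers of other cell types were read in the same way beside the bladder values of Colec10 and Colec11. Smooth muscle markers summed to 70500 to 89000 in bladder, 68800 to 94300 in urethra and 6180 to 28100 in sinus, and 4 of 8 were higher in bladder than in sinus and 0 of 8 than in urethra. Of all probe sets, 0.963% were called in bladder minus sinus and 1.71% in bladder minus urethra. Since the regions were dissected by Actg2 fluorescence, the smooth muscle count against sinus is not independent of the dissection. With the replicate block, 0 probe sets were called in bladder minus sinus. Of 8 smooth muscle markers Des alone was under the filter level on all bladder arrays. Endothelial markers summed to 16400 to 17000 in bladder, 12400 to 14100 in urethra and 9260 to 13800 in sinus, above both regions on each bladder array, and 0 of 8 were called between regions. Single markers did not share this direction. In bladder minus urethra 4 differences were positive and 4 negative (median -0.13), and in bladder minus sinus 5 were positive and 3 negative (median 0.18). The part of smooth muscle and endothelium in the collectin values was not tested.

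Mesothelial markers summed to 6480 to 10900 in bladder, 5300 to 16300 in urethra and 3010 to 12800 in sinus. Of 6, 1 was higher in bladder than in urethra and 0 than in sinus, beside 1.71% and 0.963% of all probe sets called in these comparisons. Msln and Muc16 were under the filter level on all urethra arrays and Muc16 on all sinus arrays. Among the mesothelial markers Upk3b read 2529, 2272 and 2117 in bladder, 56.0, 546 and 18.3 in urethra, and 413, 599, 616 and 195 in sinus. Its part in the pattern of Colec11 was not tested.

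Fibroblast markers summed to 207000 to 233000 in bladder, 178000 to 199000 in urethra and 127000 to 252000 in sinus, and 1 of 8 was higher in bladder than in either region. Epithelial markers summed to 44900 to 72900 in bladder, 56800 to 142000 in urethra and 57200 to 97200 in sinus, and 1 of 10 was lower in bladder than in each. Macrophage markers summed to 10500 to 12100 in bladder, 8380 to 11500 in urethra and 5480 to 18100 in sinus, with 0 of 8 called between regions. Erythroid markers summed to 38600 to 62800 in bladder, 61000 to 114000 in urethra and 45800 to 151000 in sinus, with 0 of 5 called. Neuronal markers summed to 760 to 5120 in bladder, 561 to 6090 in urethra and 1150 to 39000 in sinus, and 1 of 5 was lower in bladder than in sinus. Beside these counts, 0.963% of all probe sets were called in bladder minus sinus and 1.71% in bladder minus urethra.

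**Figure D5:**
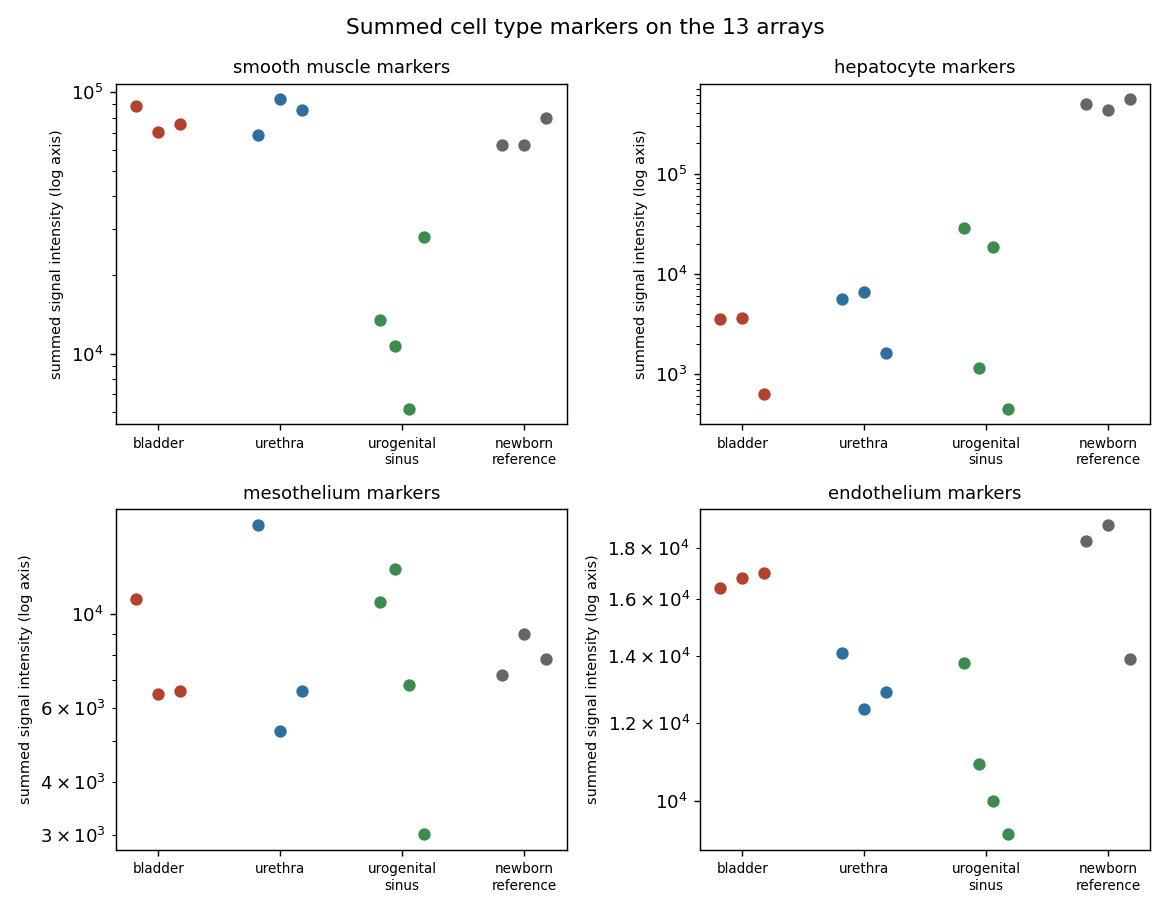
Summed signal intensity (log axis) of the smooth muscle, hepatocyte, mesothelium and endothelium marker lists on the 13 arrays, with bladder, urethra, urogenital sinus and newborn reference from left to right. Each point is an array. Hepatocyte markers are at most 28900 on any region array, against 431000 to 552000 in the newborn reference, and smooth muscle markers are high in bladder and urethra.

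Genes with the pattern most like each member were found by Pearson correlation of log2 intensity over the 10 region arrays, among 15019 genes with 1 probe set each. For Colec10 they were Fhl1 (r = 0.973), which encodes a muscle LIM protein, Rnaseh2b (0.964), the linker histone H1f2 (0.961), the amine oxidase Aoc3 (0.955) and Wdr45b (0.955). Aoc3, which is known from vessels and smooth muscle, read 857, 811 and 969 in bladder, 107, 49.2 and 38.4 in urethra, and 15.7, 74.0, 71.3 and 101 in sinus, with bladder above both regions as for Colec10. For Colec11 1458345_s_at they were the fatty acid receptor Cd36 (0.967), the lymphatic growth factor Vegfd (0.964), Slc35d2 (0.939), Upk3b (0.938) and the metalloprotease Adam12 (0.935). Vegfd read 1927, 2238 and 1826 in bladder, 388, 627 and 498 in urethra, and 1705, 1549, 1081 and 554 in sinus, which placed sinus between the other regions as for Colec11.

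For Colec12 the genes most alike were Cyp2c55 (0.942), the collagen chain Col5a1 (0.937), Stard9 (0.935), the laminin chain Lamb1 (0.934) and Fnbp1 (0.918). Col5a1 read 47682 on sinus replicate 1 and 42793 on urethra replicate 1, its highest values, and 9583 to 28484 on the other region arrays. Cyp2c55 was under the filter level on all region arrays, with at most 141. For Masp1 1438602_s_at they were the kinase gene Aatk (0.933), 6430548M08Rik (0.914), Pex11a (0.903), Zzef1 (0.903) and the receptor kinase Mertk (0.899). Pex11a and Zzef1 were lowest on bladder replicate 8, at 70.5 and 36.4, the array on which this Masp1 probe set was lowest too. All of these correlations pool 3 regions over shared arrays and describe likeness of pattern alone.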

How the data were processed

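The authors deposited linear signal intensity for 45101 probe sets on 13 arrays. Per the labels' protocols, total RNA was amplified in 2 rounds and labelled with biotin. Per the submitters' processing notes, GCOS, the Affymetrix array software, was used, without a version. Each array of the deposited intensity table had the same 2% trimmed mean, 1500 (largest difference 0.000137%), and no further scaling was applied. Detection calls were not analysed here, and the genome build behind the probe sets is not given in the sources used here, which is why coordinates are left out.

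Values under the table's 20th percentile (50.23) were raised to it before taking log2. Without the 64 controls, 34945 probe sets had 1 gene symbol, 932 several and 9160 none. Probe sets above the 40th percentile (167.76) on at least 3 arrays were kept (33125). All kept probe sets were fitted with R 4.3.3 and limma 3.58.1, using lmFit and a trended eBayes. P-values were two-sided, adjusted by Benjamini-Hochberg, and called under 0.05. A single fit took the 10 region arrays (7 residual and 3.14 prior degrees of freedom). As 1 sample, the mean of the 3 reference arrays was added, and the stages were compared with region as a covariate. Fits were tested on simulated data. The number of arrays limits the precision.

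The members and lists (complement, split into lectin, classical, alternative and common core, inhibitors and receptors, and the cell type markers) were chosen with earlier results of these data known. All 9 probe sets of the 4 genes are shown. From the complement list, each called gene is named, and otherwise the 2 with the smallest p in bladder minus sinus and in urethra minus sinus. Per member, the 5 genes of highest correlation are named, by its brightest probe set. Example values of Mbl2, Masp2, Aoc3, Vegfd, Col5a1, Cyp2c55, Pex11a, Zzef1 and Upk3b were chosen after they were seen. Alternatives covered quantile normalization, median centring, other floors, no filter, 1 probe set per gene, array weights, no trend, blocks for replicate number and title style (that of reference replicate 3 was assumed), stage as a covariate, the arrays in the fit, 3 reference samples, and each array left out. In the fit with title style the 3 reference arrays entered as 3 samples. Some genes of the lists were not analysed here.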

Additional observations from a re-analysis of the deposited data

Results flagged for a closer look

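Colec12 on sinus replicate 1 lay apart from the rest of its group, at 10.55 on the log2 scale against 8.77 on the nearest of the other 3 sinus arrays. The gap made up 0.92 of the range of the 4 sinus arrays and passed Dixon's 95% critical value. The sinus group, the only one with 4 arrays, was checked for 9 probe sets and this was the 1 that passed. Chance alone marks about 1 in 20 such groups. The same array was high in Hbb-bh1, at 15.04 on the log2 scale, and the part of that in the Colec12 value was not tested.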

How the results depend on the processing

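Colec10 and Colec11 kept their direction in bladder minus sinus and bladder minus urethra under every alternative run, Colec10 between 3.36 and 4.49 in the first. Among 1441 recomputed differences of the 9 probe sets, 0 turned the sign of a called difference or of an untested one larger than 1 SD. The sign of Colec12 in bladder minus urethra turned in 9 of 23 alternatives and that of Colec10 in urethra minus sinus in 10 of 23. The titles number the replicates, but same-numbered arrays of different regions correlated at -0.28 to 0.36 (7 pairs, 4 over 0.1), with a median of 0.18 against -0.05 for the other pairs, and 2 of 8 arrays correlated best with their own number. Since 3 of 7 pairs were not over 0.1, the samples were not treated as paired. Stage and embryonic globin go with the number, and whether a number marks a shared embryo cannot be told from the labels. With the replicate block, to which replicates 7 and 8 add nothing, Colec10 in bladder minus sinus was 3.86 and Colec11 was 1.60 (1429179_at) and 1.90 (1458345_s_at). No member had a call between regions that the block could remove, and none gained a call in urethra minus sinus. The stage and reference comparisons were not run with it. Over all probe sets, the block left 0 calls in bladder minus sinus, 35 in bladder minus urethra and 0 in urethra minus sinus, against 319, 565 and 2.

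Other settings moved these counts of called probe sets. Bladder minus sinus gave 206 with quantile normalization (89 higher, 117 lower), 148 without a filter, 3558 with array weights, 194 with only both groups in the fit and 898 without both arrays numbered 1, an alternative chosen after seeing the data. The main split was 83 higher and 236 lower, and centring gave 202 and 89. Bladder minus urethra gave 329 on centred arrays (237 higher, 92 lower), 2700 with weights, 2 with title style (1 reference array's style was assumed) and 284 with only both groups, and its main split of 208 and 357 became 229 and 201 with quantile normalization. Urethra minus sinus gave 0 on centred arrays, with no floor, with title style, with stage and with only both groups, 7 with the higher floor, 12 without a filter, 660 with weights and 4 without the trend. Bladder minus reference, 3116, gave 8612 with weights, 5691 with title style, 8087 with 3 reference samples and 4793 without both arrays numbered 1, and its split of 1005 and 2111 became 1383 and 1666 (quantile) and 1710 and 1189 (centred). Urethra minus reference, 2371, gave 3776 with the higher floor, 3655 without a filter, 5514 with weights, 3769 with title style and 5642 with 3 reference samples. Sinus minus reference, 2447, gave 3819, 3845, 7610, 4355 and 6264 with the same 5, and 3718 without both arrays numbered 1. The title style fit also took the reference arrays as 3 samples, so its counts against the reference do not reflect title style alone. The stages gave 1294 with weights. Leaving out 1 array gave 8 (without bladder replicate 2) to 729 (without sinus replicate 1) in bladder minus sinus, 52 (without bladder replicate 6) to 1284 (without sinus replicate 1) in bladder minus urethra, 0 to 3 in urethra minus sinus, 1944 to 4322, 1748 to 3052 and 1924 to 3292 against the reference in bladder, urethra and sinus, and 0 to 9 for the stages. The cause of these shifts was not tested. The median of all probe sets in bladder minus sinus was 0.28 after centring, against -0.31 as deposited. Signals under the filter level limit the size of the differences of Colec10 and Colec11.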
